A study of Mus musculus with 18 samples.

Results

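The mRNA of sorted mouse cortical neurons that expressed MTOR L2427P was compared with that of neurons that expressed MTOR C1483Y. L2427P replaces a leucine by a proline in the kinase domain of mTOR, and C1483Y replaces a cysteine by a tyrosine in the FAT domain, the helical region that wraps around the kinase. The comparison rests on 6 of the 18 samples of the series, chosen by their labels: 3 mRNA libraries labelled L2427P and 3 labelled C1483Y. The other samples were 3 mRNA libraries from neurons expressing WT MTOR, which entered the fit for the spread and are quoted for their levels, and 9 libraries of ribosome-protected footprints, which served as a second readout of the genes named here. All mice were C57BL/6. Embryos received the MTOR construct by electroporation of the cortex on embryonic day 14. On embryonic day 18 the targeted tissue was dissected and its electroporated neurons were isolated by flow sorting. Electroporated cells keep their endogenous Mtor. The labels used here give neither the promoter of the construct, its species, the marker used to sort, nor the number of embryos per library. Since nothing says that replicates came from separate litters, the p-values measure the spread between these libraries, which may be technical.

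mTOR is a serine/threonine kinase that works in a raptor-containing and a rictor-containing complex. The first of these promotes protein synthesis, lipid synthesis and ribosome production when growth factors and amino acids are available, and represses autophagy. The mRNAs whose translation depends most on it carry a pyrimidine-rich stretch at their 5′ end, the terminal oligopyrimidine tract, and encode ribosomal proteins and elongation factors. Both substitutions are known as activating somatic changes found in focal malformations of the human cortex. The question put to the data was whether neurons with the kinase domain substitution differed in mRNA from neurons with the FAT domain substitution.

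The libraries differed in how many genes they covered, and this bears on each value below. Counts assigned to named genes were 49719679, 50923364 and 26648540 in C1483Y replicates 1 to 3 and 53283035, 18627076 and 20965022 in L2427P replicates 1 to 3. Genes with a count numbered 10022, 8402 and 5644 in the C1483Y libraries and 10239, 8016 and 3173 in the L2427P libraries. Of 2212 abundant genes, defined as those with a mean of at least 100 CPM (a gene's share of the reads of all named genes, on a scale in which a library sums to 1e6) over the 9 mRNA libraries, 643 stood at 0 in L2427P replicate 3, and 607 of these had a count in each of the other 5 libraries. C1483Y replicate 3 lacked 138 of them, and the other 4 libraries lacked between 0 and 16. Over the abundant genes, the rank correlation of L2427P replicate 3 with any other mRNA library lay between 0.196 and 0.27, as a description. L2427P replicate 3 therefore stood apart. The leading results are also given without it, and values with no such addition include it. Reads without a unique alignment made up 49.9 to 77.5% of the reads tallied in the 6 files, with the highest share in L2427P replicate 3.

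**Figure D1:**
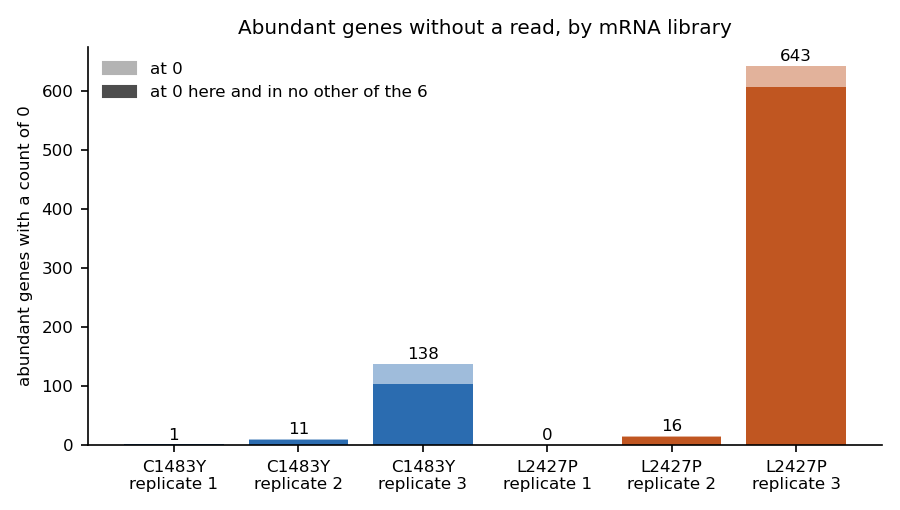
Number of the 2212 abundant genes with a count of 0 (vertical axis) in each of the 3 C1483Y (blue) and 3 L2427P (orange) mRNA libraries; the dark part of a bar is genes at 0 in that library and in no other of the 6. L2427P replicate 3 lacks 643 genes, C1483Y replicate 3 lacks 138 and the other 4 lack 16 or fewer.

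Markers of cortical projection neurons were present in both groups. Tubb3, a neuronal tubulin, was at 4181, 2784 and 4219 CPM in the C1483Y libraries and at 4361, 2894 and 1331 CPM in the L2427P libraries. Dcx, a microtubule-binding protein of migrating neurons, was at 516, 861 and 469.7 CPM against 1067, 615 and 768 CPM. Neurod6, a transcription factor of pyramidal neurons, was at 418, 445 and 408 CPM against 379.7, 441 and 501 CPM. The 20 markers of upper-layer and migrating projection neurons summed to 4502, 4288 and 5296 CPM against 4287, 4835 and 3453 CPM, and the groups overlapped. The globins Hba-a1, Hba-a2, Hbb-bs and Hbb-bt, the defining erythroid genes, were at 0 in all 6 libraries. Reads without a unique alignment were tallied apart from the genes, and these globins come as pairs of similar genes. Their zeros therefore do not show that globin RNA was absent. Of the 18 microglia and macrophage markers, 5 were at 0 in all 6 libraries, among them P2ry12 and the pan-leukocyte gene Ptprc. Other members had counts, and the sums of that list are given further below. The 14 erythroid markers in the files summed to 81.5, 0.0196 and 0 CPM against 26.4, 0.0537 and 0 CPM, 9 of them were at 0 in all 6 libraries, and Fech, the ferrochelatase of heme synthesis in many cells, was at 38.8 CPM in C1483Y replicate 1.

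Mtor itself was read in each library. Its level was 281, 317 and 787 CPM in the C1483Y libraries, 587, 388 and 297 CPM in the L2427P libraries and 455, 599.5 and 655 CPM in the WT libraries. The mutant groups overlapped, with a log2 difference of -0.09 (SE 0.57; edgeR adjusted p = 1). Counts per gene do not show the base that was changed, so they do not check the genotype labels. Without L2427P replicate 3 the log2 difference of Mtor was 0.29.

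Between the kinase domain and the FAT domain substitution, the difference of a single mRNA passed the test across all genes. Of 9558 genes tested, 1 was called at an adjusted p below 0.05 (edgeR's quasi-likelihood test with Benjamini-Hochberg adjustment), which is 0.0105% of them, and 356 (3.72%) had an unadjusted p below 0.05, 151 higher and 205 lower in L2427P. The median log2 difference was -0.21 over all genes tested and -0.19 over the abundant genes, of which 854 were higher and 1358 lower, so list medians are given beside or relative to these values. The median standard error was 1.34 on the log2 scale for an abundant gene and 3.31 over all genes tested. Of the genes tested, 1969 had a count in all 6 libraries and 7589 stood at 0 in at least 1. A Wald test in DESeq2 called 481 of the 9558 genes tested, 188 of them higher in L2427P. Of these 481, 478 stood at 0 in at least 1 of the 6 libraries and 3, Nom1, Ptpn11 and Rmrp, had a count in all 6. The 481 of 9558 are the background for the DESeq2 calls in the lists below. Below, called means called by edgeR, and DESeq2 calls are named as such. In bulk samples such as these, fewer cells of a type and less RNA per cell cannot be told apart.

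The 3 L2427P libraries all lay above the 3 C1483Y libraries for 2% of the genes tested (191) and all below them for 4.88% (466). Among the abundant genes these shares were 3.8% (84 genes) and 5.83% (129 genes). Of the 129 abundant genes that were lower without overlap, 69 stood at 0 in L2427P replicate 3, which leaves 60 with a count there. These shares are the background for the counts of list members below.

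The called gene was 2310014L17Rik, named Rnf225 in RefSeq, which annotates it as a protein-coding gene of chromosome 7 (GRCm38.p6, 12927416 to 12931072). Its level was 215, 285 and 236 CPM in the C1483Y libraries and 606, 540.2 and 4763 CPM in the L2427P libraries. Each L2427P library was higher than each C1483Y library, and L2427P replicate 3 was far above all others. The WT libraries were at 1405, 541 and 466 CPM, also above the C1483Y libraries. The log2 difference was 2.48 (SE 0.45; edgeR adjusted p = 0.00049; higher in 3 of 3 L2427P libraries). Without L2427P replicate 3 the log2 difference was 1.34 (SE 0.46) and the gene was no longer called (edgeR adjusted p = 1), and it was not called without C1483Y replicate 3 either. RefSeq places a small nuclear RNA gene, LOC115486563, inside it at 12930774 to 12930880, and counts per gene cannot tell their reads apart. In the footprint libraries the log2 difference of 2310014L17Rik was 0.14 (SE 1.99). The levels there spread widely, at 1718 and 555 CPM in C1483Y replicates 1 and 2 and at 4.85, 1610 and 2513 CPM in L2427P.

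**Figure D2:**
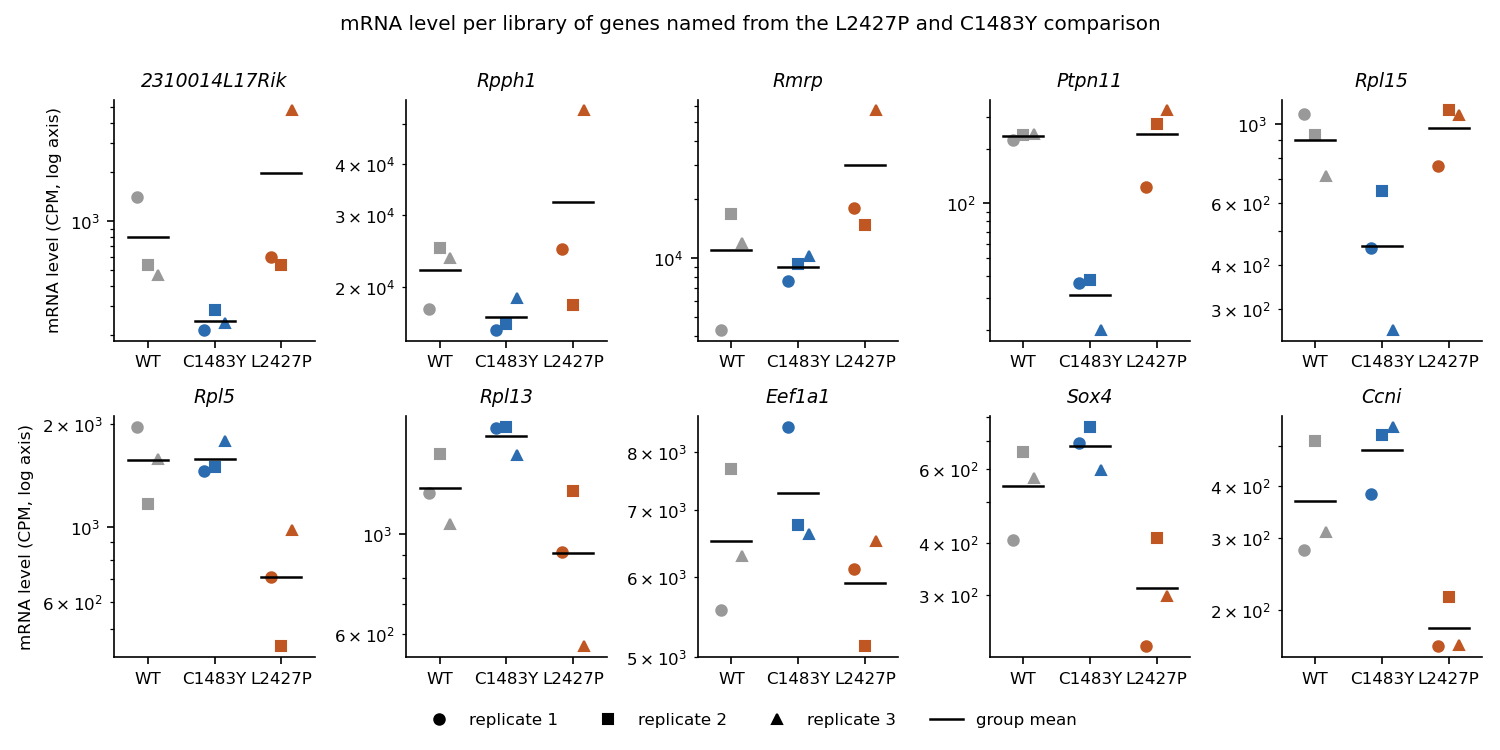
mRNA level in CPM (vertical axes, log scale, different range in each panel) of 10 genes in the 3 libraries of each genotype; symbols mark replicates and bars the group means. 2310014L17Rik, Rmrp, Ptpn11 and Rpl15 do not overlap between L2427P and C1483Y and are higher in L2427P; Rpl5, Rpl13, Eef1a1, Sox4 and Ccni do not overlap and are lower; Rpph1 overlaps, with 18018 CPM in L2427P replicate 2 against 18779 CPM in C1483Y replicate 3.

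Ribosomal protein mRNAs, the best known mTOR-dependent class at the level of translation, were mostly lower in L2427P than in C1483Y neurons, and none of them passed the test singly. Of the 31 small subunit proteins tested, all of them abundant, 28 were lower and 3 higher, with a median log2 difference of -0.41. Of the 46 large subunit proteins tested, 42 were lower and 4 higher, with a median of -0.46. Over all genes tested the median was -0.21. Without L2427P replicate 3 the medians were -0.12 and -0.10, beside 0.06 over all genes. None was called by edgeR, and DESeq2 called 1, Rpl34, which stood at 0 in at least 1 of the 6 libraries. Of the 75 that were abundant, 9 (12%) were lower without overlap, beside 5.83% of all abundant genes, and 3 (4%) were higher without overlap, beside 3.8%. Relative to all genes the medians were -0.20 and -0.24. They stayed below 0 in 17 of the 18 alternative settings and were above it, at 0.20 and 0.06, without L2427P replicate 1.

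The start regions of 5 genes are shown because a pyrimidine run near the start is the feature for which this class is known: Rpl5 and Rpl13, lower without overlap, Rps18, lower with overlap, the elongation factor Eef1a1, and Rpl15, which was higher. They were chosen after their values were seen. They come from the RefSeq promoter table of build GRCm38.p6, read 5′ to 3′ on the gene's strand, and capitals mark the longest unbroken run of C and T of at least 7 bases that lies within 25 bases of the start used in that table.
Rpl5 (chr5:107900501-107900530, plus strand): acagccaCTCTTTCTCacgtcgcttgcgtg
Rpl13 (chr8:123102327-123102356, plus strand): gacgtcaCTTCCCTTTCgcctgattttgat
Rps18 (chr17:33955645-33955674, minus strand): acttccgCTCTCTCTTCCacaggaggccta
Eef1a1 (chr9:78481707-78481736, minus strand): ggctccgCCCTCTTCCCgagggtgggggag
Rpl15 (chr14:18270968-18270997, minus strand): gagaaagCCTTCTTCCTTTCCTCTggcggc
The run begins 16 bases before the start in Rpl13, 2 before in Rps18, 5 before in Eef1a1 and 4 before in Rpl15. In Rpl5 it begins 20 bases before the start of the promoter table, which is base 1 of the RefSeq gene record, since the starts differ there by 20 bases. Only the strand of the gene was searched. Such a run was found in the same window of 57.6% of the 59 ribosomal protein genes with an entry (34 genes) and of 29.2% of all 27025 genes with an entry. Rps16, lower without overlap, and Rps7 have an entry without such a run. These are matches of letters, and the start used in these neurons was not measured.

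Rpl5, a large subunit protein that binds 5S ribosomal RNA, had the smallest p of the genes that were lower. It was at 1459, 1496 and 1782 CPM in the C1483Y libraries and at 712, 444 and 975 CPM in the L2427P libraries, so that each L2427P library was below each C1483Y library. The log2 difference was -1.36 (SE 0.35; edgeR adjusted p = 0.34), and it was -1.31 without L2427P replicate 3. The WT libraries were at 1963, 1167 and 1583 CPM. RefSeq places the small nucleolar RNA gene Snord21 within Rpl5, and counts per gene may hold reads of both. Small nucleolar RNA genes also overlap Rpl13, Rps16, Rpl23a and Rps3, and the translation factors Eef2 and Eif4a1, so the same limit holds for these.

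Rpl13, a large subunit protein, was at 1720.1, 1730.4 and 1496 CPM against 911, 1248 and 562 CPM, again with no overlap. Its log2 difference was -0.94 (SE 0.35), and -0.53 without L2427P replicate 3. Rps16, of the small subunit, was at 763, 889 and 1585 CPM against 577, 649 and 206 CPM, where the C1483Y libraries all exceeded the L2427P ones; its log2 difference was -1.13, and -0.66 without L2427P replicate 3. Rpl23a, which sits near the exit of the peptide tunnel, was at 781, 771 and 638 CPM against 563, 357 and 105 CPM, with a log2 difference of -1.08, and -0.56 without L2427P replicate 3. The remaining members that were lower without overlap were Rps3, Rps23, Rpl7a, Rpl18 and Rpl39, with log2 differences from -1.24 (Rps23, SE 2.12) to -0.52. Without L2427P replicate 3 these were -0.26, -0.63, -0.17, -0.44 and -0.53. Rps18, Rps7 and Rpl36 were lower on average (log2 differences -0.82, -0.54 and -0.91, and -0.38, -0.23 and -0.62 without L2427P replicate 3), but their groups overlapped.

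Rpl15, a large subunit protein whose start region holds the longest run shown above, went the other way. It was at 448, 648 and 262 CPM in the C1483Y libraries and at 763, 1093 and 1064 CPM in the L2427P libraries, without overlap. The log2 difference was 0.89 (SE 0.45; edgeR adjusted p = 1). Rps29 was also higher without overlap. Ribosomal protein genes have many processed copies in the genome, so reads shared with copies could have been dropped or split in the authors' counting.

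Summed over their members, the 48 large subunit proteins took 49544, 42921 and 42945 CPM in the C1483Y libraries and 39179, 40783 and 31538 CPM in the L2427P libraries. The L2427P libraries were all lower, with a ratio of the group means of 0.823, and 0.886 without L2427P replicate 3. The 32 small subunit proteins took 37399, 33359.8 and 31098 CPM against 27857, 32368 and 24666 CPM, and here L2427P replicate 2 overlapped the C1483Y range. The WT libraries were at 59520.1, 50241 and 42984 CPM for the large subunit, all above the L2427P libraries. With 3 libraries a group, an exact two-sided permutation test cannot give a p below 0.10, so no such sum can pass 0.05. The sum for the large subunit still did not overlap when the counts of small structural RNAs, described below, were left out of the total, an alternative chosen after seeing the data.

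Translation factors gave a mixed picture. The 44 initiation and elongation factors summed to 25297, 23755 and 25814 CPM against 23303, 21367 and 21309 CPM, without overlap and with a ratio of 0.881. Of the 43 tested, 28 were lower and 15 higher, with a median log2 difference of -0.17, which is close to that of all genes. Eef1a1, the factor that brings aminoacyl-tRNA to the ribosome, was at 8462, 6758 and 6624 CPM against 6115, 5123 and 6514 CPM and was the one tested member without overlap. The log2 difference of this gene was -0.48 (SE 0.18; edgeR adjusted p = 1), and -0.28 without L2427P replicate 3. Eef2, the translocation factor, was at 4357, 3902 and 5156 CPM against 4222, 3228 and 1841 CPM, where the lowest value came from L2427P replicate 3. Its log2 difference was -0.55, and -0.13 without that library. Eif4a1, the helicase of the cap-binding complex, had a log2 difference of -0.36 and overlapped.

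**Figure D3:**
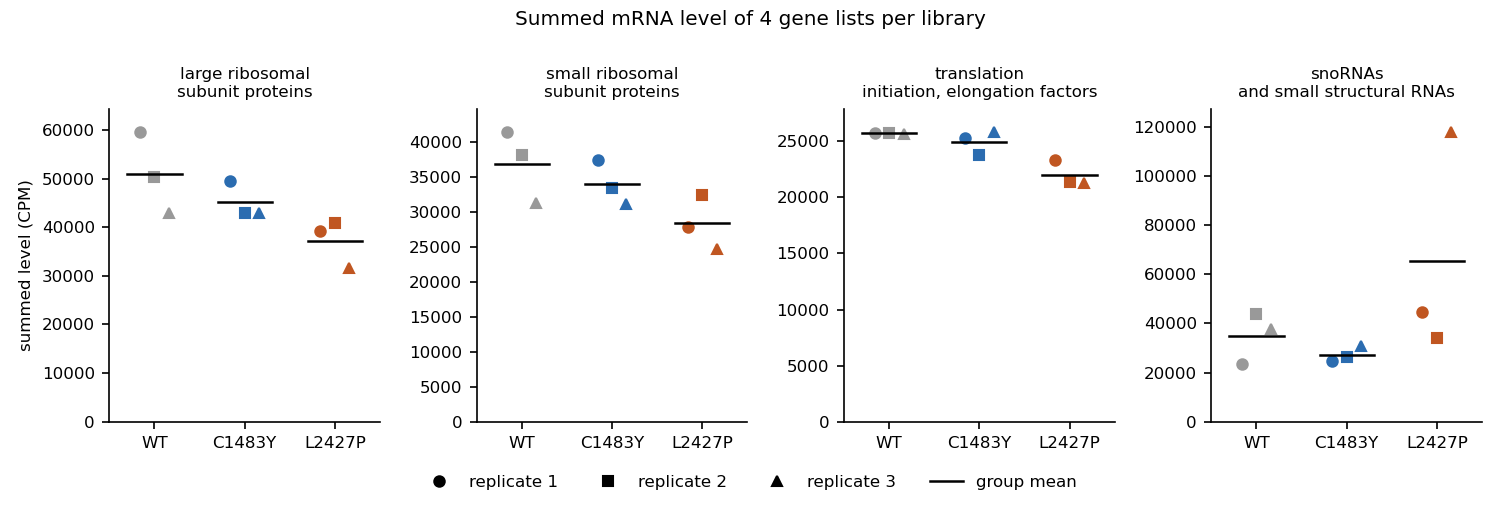
Summed level in CPM (vertical axes, from 0) of 4 gene lists in the 3 mRNA libraries of each genotype; symbols mark replicates and bars the group means. Large ribosomal subunit proteins and translation factors are lower in each L2427P library than in each C1483Y library, small subunit proteins overlap, and small structural RNAs are higher in each L2427P library, with replicate 3 at 117879 CPM.

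Small structural RNAs were higher in the L2427P libraries, with by far the highest values in replicate 3. The list of small nucleolar RNAs (guides for the modification of ribosomal RNA), Cajal body RNAs and other small structural RNAs summed to 24519, 26471 and 30672 CPM in the C1483Y libraries and 44779, 34194 and 117879 CPM in the L2427P libraries, without overlap. The ratio of the group means was 2.41, and 1.45 without L2427P replicate 3. The WT libraries were at 23387, 43717 and 37739.8 CPM and overlapped the L2427P range. Of 25 members tested, 19 were higher and 6 lower, none was called by edgeR, and 4 were higher and 1 lower without overlap beside backgrounds of 2% and 4.88%. DESeq2 called 5 of the 25, beside 481 of 9558 over all genes tested. Of these 5, Rmrp (DESeq2 adjusted p = 0.0387) had a count in all 6 libraries and the others did not. The median log2 difference over the 25 members was 1.59, and 0.60 without L2427P replicate 3. Taken over these same members where tested, and relative to all genes, it stayed above 0 in all 18 alternative settings, between 0.54 and 2.36.

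The RNAs of 2 related ribonucleases made up most of that sum. Rpph1, the RNA of ribonuclease P, which trims the 5′ ends of precursor tRNAs, was at 15693, 16227 and 18779 CPM against 24764, 18018 and 53981 CPM. L2427P replicate 2 fell within the C1483Y range. The log2 difference was 0.64 (SE 0.14; edgeR adjusted p = 0.075), and 0.47 without L2427P replicate 3. Rmrp, the RNA of ribonuclease MRP, which cuts precursor ribosomal RNA, was at 7647, 9295 and 10204 CPM against 17999, 14775 and 57085 CPM, without overlap. The log2 difference of this gene was 1.37 (SE 0.58; edgeR adjusted p = 1, DESeq2 adjusted p = 0.0387), and 0.99 without L2427P replicate 3. Together they took 2.33 to 2.90% of the counts in the C1483Y libraries and 4.28, 3.28 and 11.1% in the L2427P libraries. In footprints Rpph1 was lower in L2427P, with a log2 difference of -0.77.

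Other members of the list were rarer. Snord17, a small nucleolar RNA, was at 98.8, 152 and 193 CPM against 593, 120.2 and 844 CPM and overlapped. Vaultrc5, a vault RNA, was at 1.07, 19.1 and 20.1 CPM against 53.4, 64.4 and 306 CPM without overlap. Scarna2, a Cajal body RNA, was lower without overlap, at 208, 147 and 219 CPM against 138, 49.1 and 0 CPM. Snora61 had no count in any C1483Y library and was at 0.0751, 49.8 and 173 CPM in L2427P. BC018473, annotated as a long noncoding RNA, was among the genes with the smallest p, at 248, 559 and 234 CPM against 316, 423 and 4520.4 CPM. Its groups overlapped, and its log2 difference of 1.74 came down to 0.17 without L2427P replicate 3. The share of multiply mapped reads was highest in the same library; its part in these values was not tested.

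Several abundant protein-coding genes were higher in each L2427P library. Ptpn11, the phosphatase SHP2 that links growth factor receptors to Ras, was at 36.4, 37.6 and 20.1 CPM in the C1483Y libraries and at 123, 274 and 325 CPM in the L2427P libraries. Its log2 difference was 2.65 (SE 1.45; edgeR adjusted p = 1, DESeq2 adjusted p = 0.042), and 2.69 without L2427P replicate 3. The WT libraries, at 224, 239 and 241 CPM, lay within the L2427P range and above the C1483Y libraries. Ncbp1, the larger subunit of the nuclear cap-binding complex, was at 72.4, 201 and 64.0 CPM against 207, 370.3 and 950.3 CPM, with a log2 difference of 1.78. Psmb1, a subunit of the proteasome core, was at 324, 235 and 322 CPM against 552, 499 and 689 CPM, with a log2 difference of 0.80.

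Among these genes were members of the replicative helicase. Mcm7 was at 81.8, 223 and 80.0 CPM against 238, 239 and 1039 CPM, and Mcm3 was at 8.71, 6.6 and 32.5 CPM against 106, 81.3 and 585 CPM. The highest value of each came from L2427P replicate 3, and the other L2427P values of Mcm7 were close to the highest C1483Y value. Mcm7 hosts the microRNAs Mir25, Mir93 and Mir106b. In the cell cycle list, 29 genes were tested, 18 were higher and 11 lower, Mcm3 and Mcm7 were higher without overlap, and Cenpf, a kinetochore protein, was lower without overlap, at 3.60, 81.7 and 202 CPM against 0.413, 0.215 and 0 CPM. DESeq2 called 5 of these 29 genes, beside 481 of 9558 over all genes tested. They were Ccnb2, Cenpf, Aurka, Aurkb and Plk1, each at 0 in at least 1 of the 6 libraries. At an unadjusted edgeR p below 0.05, 4 of the 29 were higher and 0 lower, beside 151 and 205 of the 9558 genes tested. Of the 29, 3 stood at 0 in all C1483Y libraries and 21 stood at 0 in at least 1 of the 6. The median log2 difference of the list was 0.61, beside -0.21 over all genes. Without L2427P replicate 3 it was 0.34, beside 0.06. Relative to all genes it stayed above 0 in all 18 alternative settings, between 0.29 and 1.55. The summed level of that list overlapped, at 1983, 2125 and 2801 CPM against 2216, 2277 and 4524 CPM, and so did that of the 20 progenitor markers, at 1743, 2766 and 1679 CPM against 2104, 2114 and 2469.5 CPM. Trappc2l, of a vesicle tethering complex, and Pdxp, a pyridoxal phosphatase that also acts on cofilin, were higher without overlap too, with log2 differences of 2.98 and 1.60. None of these genes was called by edgeR.

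Tbca, Dctn1 and Chl1 were among the abundant genes that were lower in each L2427P library. Tbca, a chaperone of beta-tubulin folding, was at 354, 224 and 296 CPM in the C1483Y libraries and at 5.22, 45.4 and 0 CPM in the L2427P libraries. Its log2 difference was -4.11 (SE 1.60; edgeR adjusted p = 1), and -3.50 without L2427P replicate 3. Dctn1, the large dynactin subunit that joins dynein to microtubules, was at 339.9, 122 and 170.4 CPM against 52.7, 0.161 and 0 CPM. Chl1, an adhesion molecule of the L1 family, was at 259.9, 582 and 519 CPM against 87.1, 182 and 0 CPM. All 3 had their lowest L2427P value, 0, in replicate 3. In the list of tubulins and microtubule regulators, 3 of the 31 abundant genes were higher without overlap (Map2, Stmn3 and Tbcb, with log2 differences of 0.41, 0.21 and 0.16) and 1, Tbca, was lower. Among all abundant genes these shares were 3.8% and 5.83%. The standard errors of Map2, Stmn3 and Tbcb were 0.59, 0.39 and 0.68. Stmn3 turned below 0 in 1 and Tbcb in 2 of 18 alternative settings.

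Sox4, a transcription factor of newborn neurons, was at 693, 757 and 597 CPM against 226, 411 and 298 CPM. The log2 difference was -1.30 (SE 0.56), and -1.03 without L2427P replicate 3. Ccni, an atypical cyclin, was at 383, 534 and 557 CPM against 163, 215 and 164 CPM, with a log2 difference of -1.55, and -1.26 without that library. Hnrnpa0, a nuclear RNA-binding protein, was at 562, 323 and 469 CPM against 135, 183 and 205 CPM, with a log2 difference of -1.58. For these genes each L2427P library had counts, and the groups did not overlap. Sox4, Ccni and Hnrnpa0 had an edgeR adjusted p of 1. Ptbp2, the neuronal splicing repressor, was at 122, 457 and 468 CPM against 140.0, 51.0 and 0 CPM and overlapped.

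**Figure D4:**
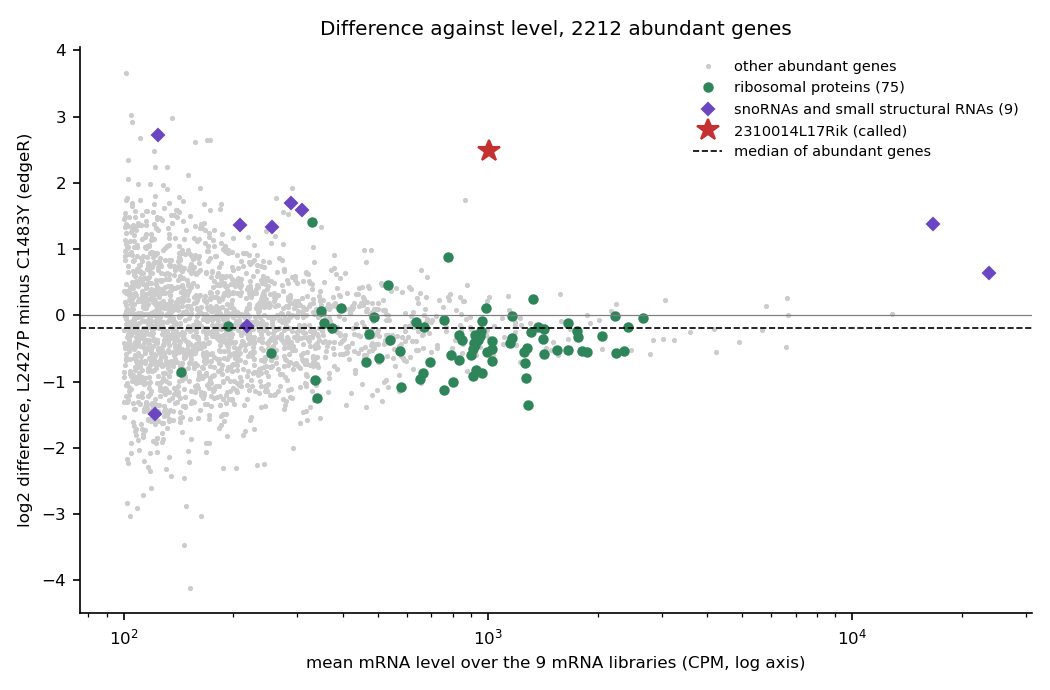
Log2 difference of L2427P minus C1483Y (vertical axis, edgeR) against the mean mRNA level over the 9 mRNA libraries in CPM (horizontal axis, log scale) for the 2212 abundant genes; the dashed line is their median, -0.19. Most ribosomal proteins (green) lie below 0, Rpph1 and Rmrp are the purple points at the right, and 2310014L17Rik (star) stands at 2.48.

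Chaperones and the actin cytoskeleton held some of the most highly expressed genes with small differences. Hsp90ab1, the constitutive cytosolic Hsp90, was at 2865, 2699 and 4247 CPM against 1956, 2752 and 2409 CPM and overlapped, with a log2 difference of -0.58 (SE 0.25). Hspa8, the constitutive Hsp70, was at 5309, 5108 and 5666 CPM against 4512, 4920.3 and 3668 CPM without overlap, with a log2 difference of -0.40, and -0.08 without L2427P replicate 3. RefSeq places small nucleolar RNA genes within Hspa8 too. Hsp90aa1, the inducible Hsp90, was higher without overlap, at 544, 653 and 593 CPM against 744, 665 and 1258 CPM. Of 37 chaperones tested, 24 were lower and 13 higher, and none was called by either tool. The 34 abundant ones had a median log2 difference of -0.39, beside -0.19 for all abundant genes. This is close to the medians of abundant small and large subunit ribosomal proteins, -0.41 and -0.40. Dbn1, an actin-binding protein of growth cones, and Tmsb10, which sequesters actin monomers, had log2 differences of -0.84 and -0.52, and -0.44 and -0.27 without L2427P replicate 3, and both overlapped. The 41 genes of the actin list summed to 32926, 28111 and 29072 CPM against 32203, 31514 and 27108 CPM, which also overlapped.

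Of 21 abundant motor genes for axonal transport, 1 was higher and 3 were lower without overlap, beside 3.8% and 5.83% of all abundant genes. The 3 that were lower each stood at 0 in L2427P replicate 3. Klc1, a kinesin light chain, was at 267, 349 and 271 CPM against 598, 498 and 479 CPM, and each L2427P library was higher. Kif5b, a kinesin heavy chain, was at 136, 153 and 366 CPM against 71.8, 84.1 and 0 CPM, and each L2427P library was lower. Their log2 differences were 0.71 and -1.91, with standard errors of 0.68 and 1.86, and 1.00 and -1.30 without L2427P replicate 3. Dctn1 and Dync1i2, a dynein intermediate chain, were the others that were lower, Dync1i2 at 323, 590 and 296 CPM against 201, 235 and 0 CPM. Of the 32 kinesin, dynein and dynactin genes tested, 13 were higher and 19 lower, with a median of -0.21, beside -0.21 over all genes, and the abundant ones had a median of -0.37, beside -0.19.

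No member of the mTOR complexes was called by either tool. The 12 members of the mTOR complexes summed to 881, 616 and 935 CPM against 959.9, 824 and 301 CPM. Rptor, the raptor subunit of the first complex, was at 93.8, 47.9 and 0 CPM against 18.1, 77.8 and 0 CPM, and Rictor, which defines the second complex, was at 89.5, 0.0196 and 0 CPM against 50.3, 115 and 0 CPM. Both were low, and each stood at 0 in L2427P replicate 3. Mlst8, shared by both complexes, was at 53.2, 46.7 and 37.1 CPM against 29.0, 0 and 0 CPM, and was the one member that was lower without overlap. Of the 10 tested, 7 were lower and 3 higher, and none had an unadjusted p below 0.05.

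Signalling genes around mTOR numbered 38 tested, 22 higher and 16 lower, with a median log2 difference of 0.14, beside -0.21 over all genes. Relative to all genes the median was 0.35, and it was below 0 in 1 of 18 alternative settings. None was called by edgeR, and DESeq2 called Pik3cb and Rragb, each at 0 in at least 1 of the 6 libraries. Akt1, the kinase that relays growth factor signals to mTOR, was at 782, 1171 and 602 CPM against 734, 589.8 and 134 CPM. Its log2 difference was -0.80 (SE 0.49; edgeR adjusted p = 1), and -0.27 without L2427P replicate 3. Of the phosphoinositide 3-kinase subunits, the regulatory Pik3r1 was higher without overlap (log2 difference 1.65) and the catalytic Pik3ca lower without overlap (log2 difference -1.23). Adk, the adenosine kinase, was at 30.8, 0 and 0 CPM against 39.7, 40.3 and 0 CPM. It stood at 0 in 3 of the 6 libraries, and its log2 difference of 1.27 had a standard error of 3.90.

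Among the metabolic lists, sterol and fatty acid synthesis had the lowest median of the abundant members, and no gene of these lists was called by either tool. Of 13 abundant genes of sterol and fatty acid synthesis, 11 were lower and 2 higher, with a median log2 difference of -0.43 beside -0.19 for all abundant genes. Over the 32 tested, the median relative to all genes was -0.13, and it was above 0 in 2 of 18 alternative settings, among them the one without L2427P replicate 3. Acaca, the acetyl-CoA carboxylase that starts fatty acid synthesis, was at 378, 247 and 305 CPM against 229, 79.7 and 0 CPM, and Srebf2, the transcription factor of the sterol genes, had a log2 difference of -1.35. Both were lower without overlap, as was Sc5d, a sterol desaturase. Of 74 respiratory chain genes tested, 32 were higher and 42 lower, with a median of -0.15, beside -0.21 over all genes. Atp5e, a small subunit of the ATP synthase, was higher without overlap, at 279, 447 and 236 CPM against 490.1, 604 and 612 CPM. Of 19 glycolytic genes, 8 were higher and 11 lower, and Aldoa, an aldolase, was higher without overlap, at 209, 117 and 12.0 CPM against 226, 224 and 594 CPM.

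For degradation, the lists of the lysosome with autophagy and of the proteasome had medians of -0.25 and -0.13 over 49 and 36 genes tested. The median over all genes was -0.21. Sqstm1, the autophagy receptor p62, was at 294, 319.9 and 395 CPM against 269.8, 149 and 0 CPM, with a log2 difference of -1.14, and -0.53 without L2427P replicate 3. Psap, the precursor of the saposins, was at 815, 1248 and 918 CPM against 913, 754 and 720.1 CPM and overlapped. Psmc6, an ATPase of the proteasome cap, was higher without overlap, as was Psmb1 above. No member of either list had an unadjusted edgeR p below 0.05, and DESeq2 called 1, Glb1, a lysosomal galactosidase.

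**Figure D5:**
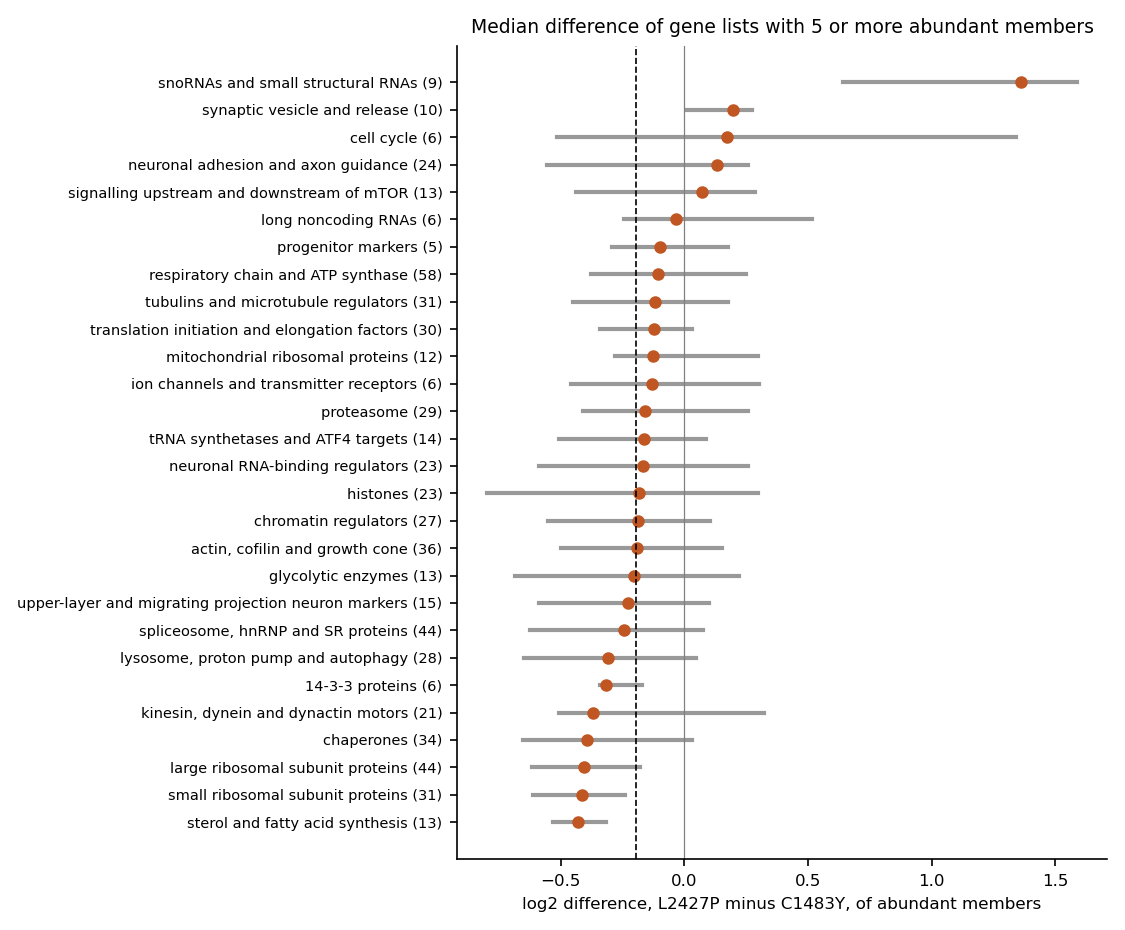
Median log2 difference (points) and interquartile range (bars) of L2427P minus C1483Y over the abundant members of the gene lists with 5 or more of them, with the number of members in brackets; the dashed line is the median of all 2212 abundant genes, -0.19. Small structural RNAs lie farthest to the right at 1.36, and sterol synthesis and both ribosomal protein lists farthest to the left at -0.43 to -0.40.

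Among channels and receptors, 6 of the 39 genes tested were abundant. Gabrb2, a beta subunit of GABA type A receptors, was at 0.141, 0 and 0 CPM against 109.8, 53.8 and 369 CPM, while 2 of the WT libraries stood at 0 and the other at 0.448 CPM. Scn8a, a neuronal sodium channel, was at 54.9, 0.0196 and 60.8 CPM and Gabbr2, a GABA type B receptor subunit, at 6.17, 71.7 and 98.2 CPM in the C1483Y libraries, and both had no count in any L2427P library. Of 39 channels and receptors tested, 17 were higher and 22 lower. In the adhesion and guidance list, 23 of 43 were higher and 20 lower, and Chl1, Lrp12 and Ncam1 were lower without overlap, with log2 differences of -2.25, -2.88 and -0.70, and -1.64, -2.27 and -0.37 without L2427P replicate 3. That list held 24 abundant genes. No gene of these 2 lists was called by edgeR. DESeq2 called 6 of the 39 channels and receptors, beside 481 of 9558 over all genes tested. Among these 6 were Gabrb2, Gabbr2 and Scn8a, and each of the 6 stood at 0 in at least 1 of the 6 libraries.

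Markers of other cells were low, and their part in the results above was not tested. The interneuron markers summed to 147, 365 and 56.3 CPM against 343, 451 and 355 CPM, which overlapped, and 5 of the 20 (Dlx2, Dlx5, Npy, Nkx2-1 and Nr2f2) were at 0 in all 6 libraries. Sp8, one of their transcription factors, was higher in each L2427P library, at 1.75, 7.95 and 0 CPM against 114, 48.4 and 196 CPM. The 19 astrocyte and oligodendrocyte markers summed to 433, 1007 and 858 CPM against 616, 1404 and 1265 CPM, also with overlap, and S100b, Sox10 and Mag were at 0 in all 6. Relative to all genes, the median of this list stayed above 0 in all 18 alternative settings, while that of the microglial markers was below 0 in 8 of 17. Aldh1l1, an astrocyte enzyme, was at 0.0402, 0 and 0 CPM against 52.0, 14.7 and 271 CPM, and Pdgfra, a receptor of oligodendrocyte precursors, was lower without overlap, at 34.9, 50.5 and 53.4 CPM against 28.0, 0 and 0 CPM. The 18 microglial markers summed to 149.7, 467 and 103 CPM against 221, 261 and 253 CPM, and the 20 endothelial, mural and meningeal markers to 385, 224 and 173 CPM against 230.5, 154 and 353 CPM.

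Most genes with the smallest p outside the abundant class were present in one group and at or near 0 in the other. Rpp21, a protein subunit of ribonuclease P, had no count in the 3 C1483Y libraries and was at 45.9, 69.8 and 306 CPM in the L2427P libraries. Against a floor of 3 counts per library this is at least 1817-fold higher, and at least 749-fold without L2427P replicate 3, bounds that cover counting error only. One WT library also had no count. Mul1, a mitochondrial ubiquitin ligase, was at 0.0201, 0 and 0 CPM against 65.1, 105 and 427 CPM, the C1483Y value being a single read. Sez6l, Msi1 and 4933426M11Rik had no count in the C1483Y libraries and, like Mllt10, stood at or near 0 in at least 1 L2427P library.

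In the other direction Safb2, a nuclear scaffold-binding protein, was at 4.49, 69.7 and 104 CPM against 0.0188, 0 and 0 CPM. Rpa3, a subunit of the single-stranded DNA-binding complex, was at 50.4, 38.5 and 84.5 CPM against 0.0188, 0 and 0 CPM. Chmp6, of the ESCRT-III membrane remodelling complex, was at 81.7, 90.8 and 0 CPM against 0.131, 0.0537 and 0 CPM. Lrch1 and Cdk20 had no count in the L2427P libraries and stood at 0 in 1 C1483Y library each. Their unadjusted edgeR p lay between 0.007 and 0.015, with an adjusted p of 1. Of the genes tested, 173 were at 0 in all C1483Y libraries and 238 at 0 in all L2427P libraries, so such patterns were common.

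The footprint libraries gave a second measurement of the named genes. C1483Y footprint replicate 3 was left out, since its values were displaced against its gene names, which leaves 2 C1483Y and 3 L2427P footprint libraries. No gene of 10315 was called in footprints by edgeR (131 at an unadjusted p below 0.05), and the median log2 difference there was 0.55. Among abundant genes lower in mRNA without overlap, 6 of the 10 with the smallest p were also lower in footprints. Among those higher without overlap, 2 of the 10 with the smallest p were also higher in footprints. Over all abundant genes tested in both, with or without overlap, the matching shares were 48.2% of those lower and 51.8% of those higher. Rpl5, Rpl13 and Rps16 had footprint log2 differences of -1.15, -1.18 and -1.10, with unadjusted edgeR p-values of 0.16, 0.24 and 0.52. Rpl23a, also lower in mRNA without overlap, had a footprint log2 difference of 0.998 (SE 3.43), and Rps3 one of -0.34 (SE 0.92). Summed footprints of the small subunit proteins overlapped, at 6798 and 5999 CPM in C1483Y and 7505, 5688 and 5677 CPM in L2427P. Those of the large subunit proteins did not, at 12648 and 10350 CPM against 10116, 9436 and 9459 CPM. Eef1a1 had a footprint log2 difference of -0.52 and Sox4 one of 0.04. Rpl15 and Ptpn11, higher in mRNA, had footprint log2 differences of -0.15 (SE 0.66) and -0.27 (SE 2.63).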

How the data were processed

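Sequencing libraries of heat-fragmented mRNA and of ribosome footprints were made with a small RNA kit, per the labels' protocols. The authors deposited 1 table of counts per gene and library. The values are raw read counts, except in 1 footprint table (C1483Y replicate 3), where 165 deposited values are not whole, so it was handled as a table of expected counts, though how those values arose is not given in the sources used here; it was used, rounded, only in 1 alternative, since its values are displaced against its gene names. The tools listed in the submitters' processing notes are TopHat2 2.1.1, Bowtie 1.1.2 and HTSeq, with mm10 as the build and no role given for each; whether counting used strand is not given in the sources used here. Rows that name no gene and 27 rows with date-like names were left out, the latter holding 0.0935 to 0.263% of the counts of the 6 libraries. CPM was computed over the 24035 named genes; the totals were 18627076 to 53283035, and intervals from counts would cover counting error only.

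The 9 mRNA libraries were fitted in edgeR 4.0.16 (R 4.3.3; TMM, filterByExpr with a minimum count of 10, robust quasi-likelihood, Benjamini-Hochberg at 0.05), with L2427P minus C1483Y as the contrast. The scripts were tested on simulated counts. No simulated library was made to lack genes as L2427P replicate 3 does, so that test does not measure performance on such data. Groups that do not overlap were counted on CPM. DESeq2 1.42.0 and limma 3.58.1, on log2(CPM + 1) and log2(CPM + 5), served as alternatives. Genes were named if called, if among the 10 smallest p in each direction (over all genes, and over abundant genes without overlap), or if among the 4 smallest p of a list; Mtor and Adk were added, and further list members without overlap and marker genes were named after their values were seen. The comparison and the 38 lists were chosen with earlier results of these data known. A few genes and sequences that the naming rule covers are not reported here.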

Additional observations from a re-analysis of the deposited data

Results flagged for a closer look

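A signal lay in data outside the comparison. Rows whose gene names had turned into dates hold reads in each of the 6 libraries, from 0.09355% of the counts in L2427P replicate 3 to 0.2626% in L2427P replicate 1. Which gene each of these rows stands for cannot be read from the tables, and they entered no test.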

How the results depend on the processing

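The count of called mRNA genes was 1 in the fit as reported. It was 0 with the 6 mutant libraries alone, with DESeq2 size factors and with abundant genes alone, 481 with the DESeq2 Wald test (188 higher; 1055 genes without an adjusted p), and 0 to 3 with 1 of the 9 libraries left out. At an unadjusted p below 0.05 these settings gave 65, 359 and 22 genes where none was called. It was 0 without L2427P replicate 3 (220 genes at an unadjusted p below 0.05) and without C1483Y replicate 3 (237). Without L2427P replicate 1 the calls were 2310014L17Rik, Dctn1 and Eef2, and without L2427P replicate 2, WT replicate 1 or WT replicate 3 they were 2310014L17Rik and Rpph1. Without replicate 3 of both mutants the called gene was Chmp6. Replicate numbers did not pair the libraries (correlations of same-numbered deviations from -0.0706 to 0.063, and 0 of 6 libraries closest to their own number), and a fit with the number as a replicate block called 2 genes, adding Rpl5. 2310014L17Rik kept its direction in 18 of 18 alternatives, with log2 differences from 1.21 to 2.81, and was called in 11 of the 17 that gave an adjusted p (7.74e-05 to 1). Footprint calls, 0 as reported, ran from 0 to 125 with 1 library left out, 125 without C1483Y replicate 2, which leaves 1 library of that group, assumed to vary like the others.

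Directions turned for 9 genes that were not called in the fit as reported; the cause was not tested. BC018473 was at -0.12 without replicate 3 of both mutants. Mtor ranged from -0.62 to 0.33 with 1 library left out and was at 0.72 without both replicates 3. Rictor ranged from -0.28 to 12.02, Rptor from -2.36 to 0.41 and Dcx from -0.23 to 0.62 with 1 library left out. Tubb3 ranged from -1.01 to 0.0885 and was at 0.0543 without both replicates 3. Neurod6 ranged from -0.28 to 0.0502, and was at 0.0483 with limma on log2(CPM + 1) and at 0.048 on log2(CPM + 5). Stmn3 ranged from -0.13 to 0.50 and Tbcb from -0.0715 to 0.44 with 1 library left out. The median of all genes moved between -0.76 and 0.06 across settings. Coverage limits the comparison: 7589 of the 9558 genes tested stood at 0 in at least 1 of the 6 libraries.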
